A study of Tuber borchii with 4 samples.

Results

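The RNA of truffle mycelium grown in a maltose and peptone medium was compared with that of mycelium grown in woody-plant media. Mycelium of *Tuber borchii* strain SP1, an ectomycorrhizal ascomycete isolated from the inner tissue (gleba) of a fruiting body, was cultured in the dark in static liquid at 22 °C, and 1 library was sequenced per medium. The carbon source of MPY was maltose (35 g/L), with peptone and yeast extract at 5 g/L each, and it was harvested on day 85. WPG held woody plant medium with 20 g/L glucose, WPGY held the same plus 5 g/L yeast extract, and both were harvested on day 65. PDB, 20 g/L potato dextrose broth harvested on day 85, was not used to choose genes, and its values are given beside the others. The comparison therefore used 3 of the 4 libraries and all 12346 gene models of the reference strain Tbo3840, which is not the strain that was grown. The headers of the count columns give day 83 for MPY and day 64 for WPG and WPGY where the sample labels give 85 and 65. Carbon source, nitrogen source and harvest day all differed between MPY and the woody-plant media, so their parts in any difference cannot be told apart.

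Maltose is a disaccharide of glucose, which fungi take up whole or split outside the cell before it enters glycolysis. Peptone and yeast extract bring amino acids and peptides, which are taken up and broken down by transaminases, arginase and related enzymes. Woody plant medium supplies mainly inorganic nitrogen, to which WPGY added yeast extract at the same concentration as in MPY. Small heat shock proteins and other chaperones bind unfolded proteins and are abundant in many fungi under stress, starvation or development.

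The counts summed to 47969567 in MPY, 116376579 in WPG, 125457058 in WPGY and 157335190 in PDB, and 10335 models in MPY had at least 1 count against 10838 in WPG and 10902 in WPGY. Levels are given as counts scaled to 1000000 per library (CPM), which are not corrected for gene length. Ratios compare the same model between libraries. Ranks, shares of counts and differences in CPM between models also depend on gene length and do not rank amounts of RNA. One count was worth 0.0208 CPM in MPY, 0.00859 in WPG and 0.00797 in WPGY. Differences are log2 ratios of CPM + 1. A model was called higher or lower in MPY where the log2 ratio was at least 1 in size (2-fold) and of the same sign against both WPG and WPGY, among the 8776 models with at least 1 CPM in any of the 3 libraries. The ratio quoted for a model is the smaller in size of its log2 ratios to WPG and WPGY. With 1 library per medium there is no replicate error and no p-value, and the 95% intervals given for ratios (exact, from the counts) and shares (Clopper-Pearson) cover counting error only.

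Of the 8776 models, 794 (9.05%) were called higher in MPY and 1152 (13.1%) were called lower, together 22.2%. The limit of 4-fold against both media was passed by 229 higher models (2.61%) and 279 lower ones (3.18%), and 16-fold by 31 and 27. In RNA of whole mycelium, fewer cells that use a gene and less of its RNA per cell cannot be told apart. WPG and WPGY were close to each other. The SD of the log2 ratio of WPGY to WPG was 0.10 over the tested models, the largest such ratio in size was 0.52, and 0 models passed 2-fold, whereas the SD of the log2 ratio of MPY was 1.04 against either. The spread between WPG and WPGY was still 12.9 times the variance that counting alone gives, on average over 9935 models with at least 20 counts, with a median of 2.93 times. Because WPG and WPGY lie so close, asking for both removed few calls: 839 models were higher and 1260 lower against WPG alone, and 838 and 1205 against WPGY alone.

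**Figure D1:**
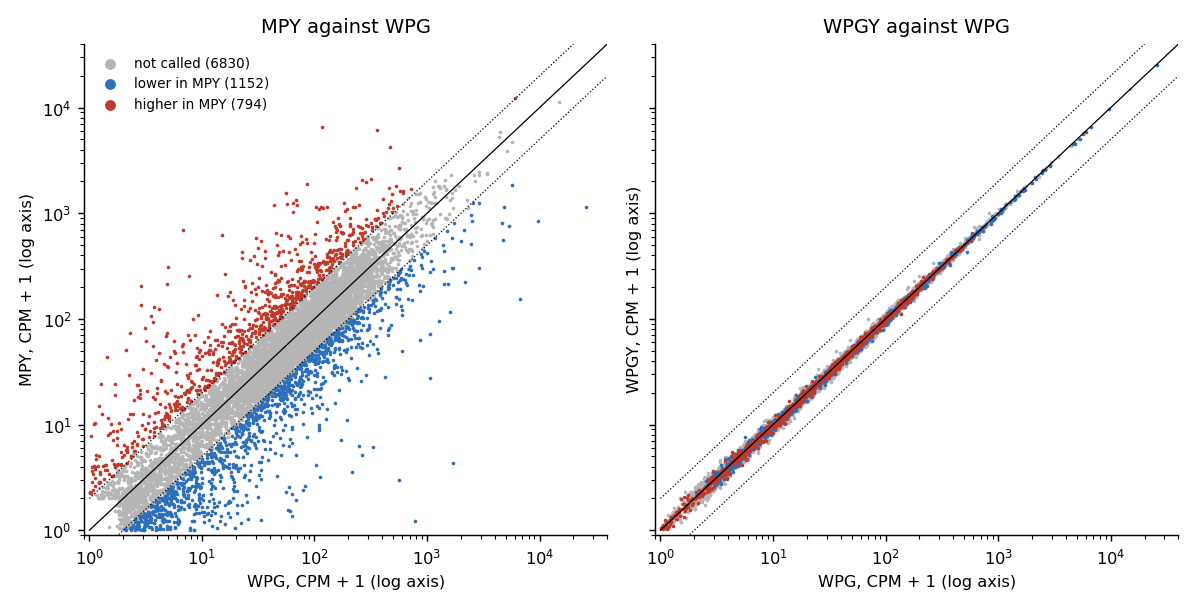
Level of each of the 8776 tested gene models in MPY (left) and WPGY (right) against its level in WPG, both in CPM + 1 on log axes, with the line of equality and dotted lines at 2-fold. The 794 models called higher (red) and the 1152 called lower (blue) spread widely in MPY, and none of the 8776 models left the 2-fold lines in WPGY.

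The median log2 ratio over the tested models was -0.11 to WPG and -0.10 to WPGY rather than 0, and it moved to 0.03 under median-of-ratios scaling. The models called higher took 21.5% of the MPY counts and 5.82% of the WPG and 5.83% of the WPGY counts, with 13.5% in PDB. The models called lower took 5.38% of the MPY counts, 21.9% in WPG, 21.7% in WPGY and 10.3% in PDB. The models that took the most counts were among them. Of the 10 with the most counts in MPY, 5 were called higher and none lower, and of the 10 with the most in WPG, 6 were called lower and 1 higher. Over all tested models 9.05% were higher and 13.1% lower. A model picked for a high count in 1 library is more likely to be called high there, so these counts are not independent of the calls. Lower calls were more often of low level: 318 of the 1152 lower models and 91 of the 794 higher ones stayed under 10 CPM in all 3 libraries. Over all 8776 tested models, 1634 did. In MPY, 10 lower models had 0 counts and 35 had at most 3, so their fitted ratios depend on the value added before the logarithm.

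The largest rises were in models for which the sources used here give no function. The annotation held here lists 827 of the 12346 models, 459 of them with a function. A missing function here therefore does not mean that a gene is uncharacterised. Model 1009449, on sequence 517 of the Tubbor1 assembly at bases 10421 to 12398, stood at 690 CPM in MPY, 5.78 in WPG, 5.28 in WPGY and 9.70 in PDB. Its level in MPY was 119 times that in WPG (interval 111 to 129), a log2 ratio of 6.67. The next model on that sequence, 1097124, overlaps it by 61 bases and was also high in MPY alone, at 206 CPM against 1.86 in WPG, 2.12 in WPGY and 3.22 in PDB. Reads in the shared bases cannot be assigned to either of them with certainty. Model 980014, on sequence 95 at bases 115527 to 116841, rose from 115 CPM in WPG and 116 in WPGY to 6539 in MPY, 57.1 times the WPG level (interval 56.1 to 58.1), with 412 CPM in PDB. It alone held 0.654% of all MPY counts, the third largest share in that library. Models 197806 and 988158, which lie 51 bases apart on sequence 164, stood at 72.7 and 214 CPM in MPY and between 1.29 and 4.18 CPM in the woody-plant media. Model 1131693 on sequence 242 was close to 0 outside MPY, with 42.5 CPM there, 0.43 in WPG, 0.47 in WPGY and 0.095 in PDB.

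The other 6 of the 12 largest rises (1071578, 752006, 1145450, 1085572, 1065304 and 1108898) had log2 ratios of 4.91 to 5.88. They did not share a level in PDB. Model 1071578 stood at 310 CPM in MPY and 108 in PDB and 1085572 at 129 and 42.9, whereas 752006 had 135 CPM in MPY and 1.54 in PDB, as low as in WPG (1.88) and WPGY (1.52). Model 752006 overlaps the model before it, 1071610, by 387 bases, so their reads cannot be told apart there.

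Falls were larger than rises at the extreme, and 3 of the 12 largest lay side by side on sequence 216. Model 993248 (bases 54704 to 57796) had 785 CPM in WPG and 789 in WPGY, 30.2 in PDB, and 0.229 in MPY, where 11 counts were read. Its WPG level was 3425 times that in MPY (interval 1914 to 6861), a log2 ratio of -9.32. Its neighbour 1089697, at bases 49071 to 53698 and separated from it by 1005 bases, stood at 3.31 CPM in MPY against 1703 in WPG and 1675 in WPGY, with 122 in PDB (log2 ratio -8.60). The model on its other side, 993210, stood at 26.4 CPM in MPY, 1054 in WPG, 1089 in WPGY and 128 in PDB. All 3 were therefore lowest in MPY, with PDB between MPY and the woody-plant media. No function is given for them in the sources used here.

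Model 1120143, on sequence 22 at bases 8333 to 9740, was low in MPY (2.02 CPM) and PDB (2.53 CPM) and stood at 568 CPM in WPG and 547 in WPGY. Models 1053269 and 1028216 were likewise low in both MPY and PDB, with 2.56 and 5.11 CPM in MPY, 1.92 and 7.14 in PDB and 216 to 332 in the woody-plant media. PDB was high, however, for 652823 and its neighbour 652836 on sequence 50, which stood at 4.13 and 5.34 CPM in MPY. Model 652823 had 249 CPM in PDB, 262 in WPG and 256 in WPGY, and 652836 had 242 CPM in PDB, 246 in WPG and 239 in WPGY, so both were low in MPY alone among the 4 libraries. Model 205485 on sequence 168 and model 972058 on sequence 47 stood under 1 CPM in MPY and between 53.4 and 59.4 CPM in the woody-plant media, and 1077074 on sequence 44 had 0.354 CPM in MPY against 62.8 in WPG and 61.8 in WPGY.

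**Figure D2:**
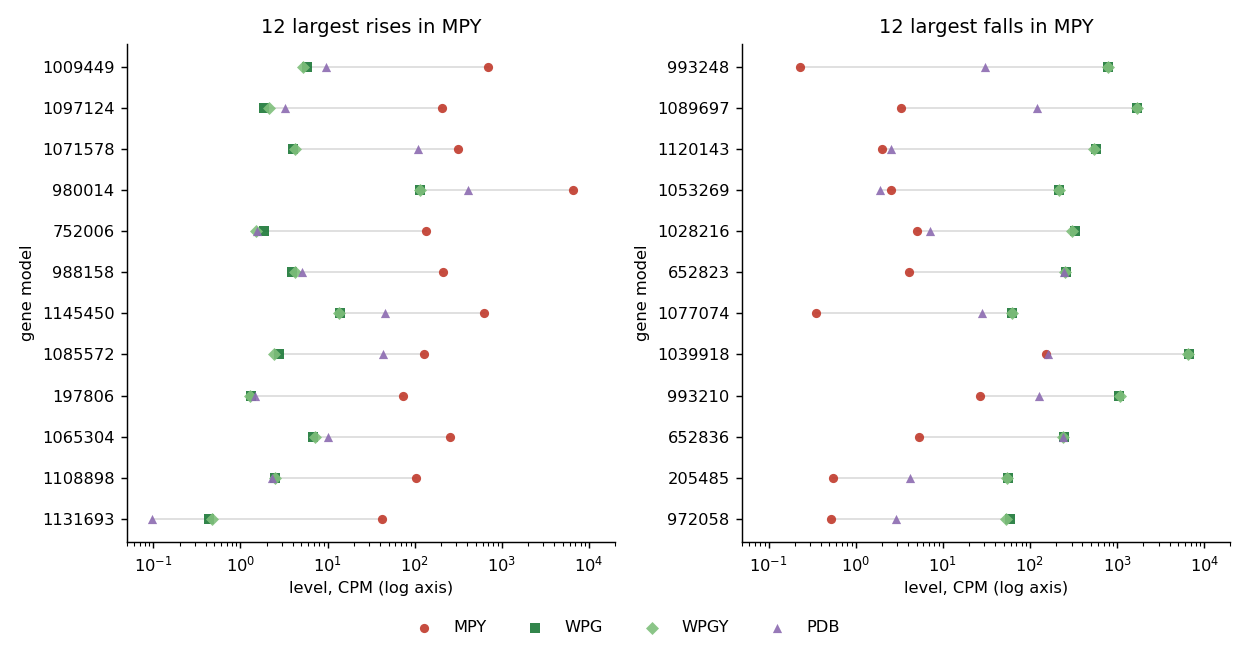
Level in CPM (log axis) of the 12 gene models with the largest rises (left) and the 12 with the largest falls (right) in MPY, among those of at least 10 CPM in 1 of the 3 compared libraries, with 1 point per library. The WPG and WPGY points nearly coincide, the MPY point lies far from both, and the PDB point varies in place: 249 CPM for 652823, beside WPG and WPGY, and 2.53 CPM for 1120143, beside MPY.

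In total 32 models were under 1 CPM in MPY and at least 10 CPM in both woody-plant media, and 6 were the reverse. The 6 included, beside 1131693, model 1071610, which overlaps 752006, with 23.3 CPM in MPY against 0.266 in WPG and 0.311 in WPGY. Model 973256 on sequence 55 had 2 counts in MPY (0.0417 CPM) against 18.8 CPM in WPG and 18.0 in WPGY and 0 counts in PDB. Its WPG level was 450 times that in MPY, with a counting interval of 124 to 3716.

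The largest loss of counts in MPY was in the small heat shock protein 990338, of the Hsp20 family to which Hsp26 and Hsp42 of yeast belong, which hold unfolded proteins in a soluble form. It lies on sequence 186 at bases 146604 to 147098. Its level was 1139 CPM in MPY, 25645 in WPG, 25090 in WPGY and 729 in PDB. It took 2.56% of all WPG counts and 0.114% of the MPY counts, and its WPG level was 22.5 times the MPY level (interval 22.3 to 22.7). Model 1039918, a molecular chaperone on sequence 18 at bases 79293 to 79943, stood at 152 CPM in MPY, 6712 in WPG, 6563 in WPGY and 160 in PDB, a WPG level 44.2 times that in MPY (interval 43.2 to 45.3). For both, MPY and PDB were low and the woody-plant media high.

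The chaperone list holds 7 models named by the study or by the annotation held here, which covers 827 of the 12346 models. It therefore does not stand for the chaperones of the genome as a whole. Of the 7, all tested, 5 were called lower in MPY and none higher, against 13.1% lower over all tested models. Their median log2 ratio was -1.44 to WPG and -1.41 to WPGY. Both models above were described by the study from these same libraries, so their place in the list is not independent of the result. Among the other 5, taken from the functional annotation, 3 were lower. CCT5, a subunit of the chaperonin that folds actin and tubulin (24915), stood at 122 CPM in MPY, 377 in WPG and 375 in WPGY, with 148 in PDB. An Hsp70 family model (1192977) stood at 17.1 CPM in MPY, 48.1 in WPG and 47.0 in WPGY, with 14.4 in PDB. The Hsp90 co-chaperone p23 (wos2, 982618) had 806 CPM in MPY, 1747 in WPG, 1672 in WPGY and 276 in PDB, a log2 ratio of -1.05 that missed the limit under TMM (-0.95), median-of-ratios (-0.91) and length scaling (-0.94). The second Hsp70 model (980951), at 1.77 CPM in MPY and 1.75 in WPG, and the prefoldin subunit GIM5 (963539), at 36.2 and 37.6, were not called.

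In the ubiquitin and proteasome list, 3 of 11 tested models were lower and none higher, with a median log2 ratio to WPG of -0.34. Over all tested models 13.1% were lower. The lower ones were a non-canonical ubiquitin-conjugating enzyme (14843; 23.7 CPM in MPY, 72.6 in WPG, 70.3 in WPGY), the 20S proteasome subunit SCL1 (1083910; 69.1 CPM in MPY, 158 in WPG, 156 in WPGY) and a RING-finger model annotated as an E3 ligase (1126489). That E3 model stood at 229 CPM in MPY, 471 in WPG and 479 in WPGY, and its log2 ratio of -1.04 missed the limit under the same 3 scalings, TMM (-0.93), median-of-ratios (-0.90) and length (-0.91). RPN10, a ubiquitin receptor of the 26S proteasome (1070154), stood at 133 CPM in MPY, 169 in WPG and 160 in WPGY and was not called.

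**Figure D3:**
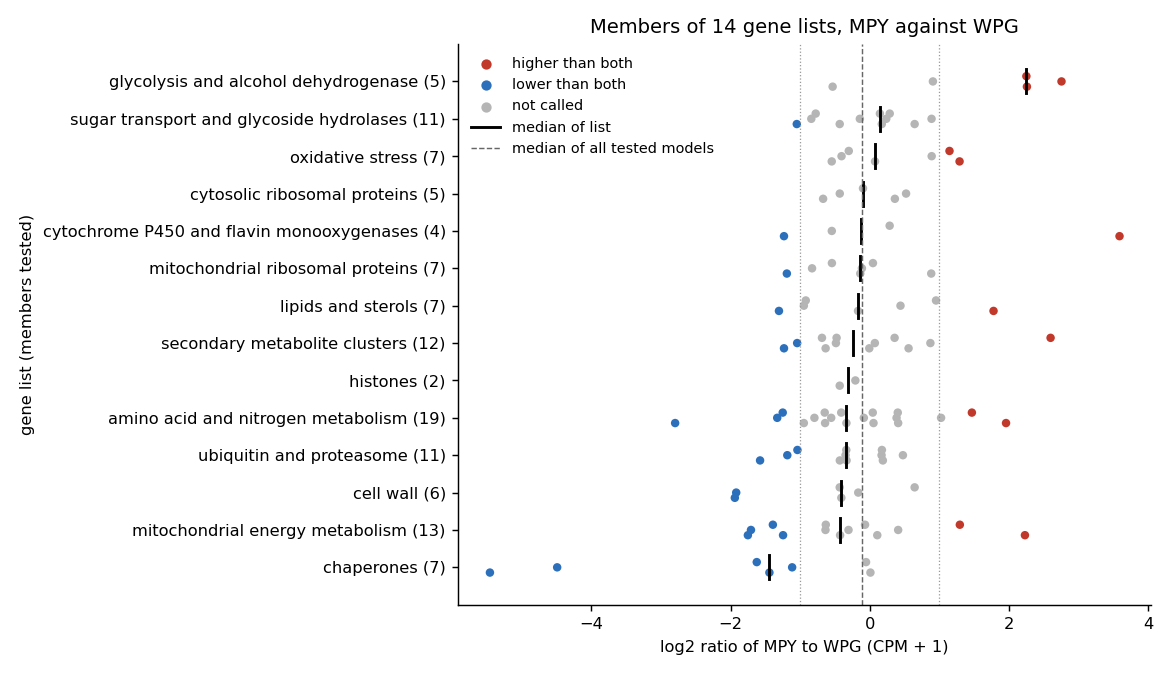
Log2 ratio of MPY to WPG (CPM + 1) for the tested members of 14 gene lists, 1 point per gene model, coloured by the call against both woody-plant media, with the median of each list (black) and of all 8776 tested models (dashed, -0.11). The chaperone list lies lowest (median -1.44) and the glycolysis list highest (median 2.25), and most other medians lie within 0.35 of 0.

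The short list of glycolysis and alcohol dehydrogenase models showed the opposite direction. It holds 6 models, a small part of those the study counted in the pathway, so it does not stand for glycolysis as a whole. Of its 5 tested models, 3 were called higher (9.05% over all tested models) and none lower, and the median log2 ratio was 2.25 to WPG and 2.26 to WPGY. These models too were discussed by the study from the same libraries, so the list is not independent evidence of its direction. Phosphoglycerate kinase (1077976), which makes ATP in the lower part of glycolysis, stood at 1238 CPM in MPY, 182 in WPG, 184 in WPGY and 325 in PDB, a log2 ratio of 2.74. Glyceraldehyde 3-phosphate dehydrogenase, the enzyme just before it, is split over the models of its catalytic domain (1079835) and its NAD-binding domain (957843), which overlap by 42 bases on sequence 69. The catalytic model stood at 2691 CPM in MPY, 562 in WPG, 560 in WPGY and 1820 in PDB. The NAD-binding model stood at 787 CPM in MPY, 164 in WPG, 160 in WPGY and 539 in PDB. Their ratios to WPG were nearly equal, 2.26 and 2.25 on the log2 scale, and they count as a single enzyme rather than as separate evidence. Both medians of the list are values of this enzyme.

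Phosphofructokinase (1092436), which commits sugar to glycolysis, fell just short of the limit with 462 CPM in MPY, 246 in WPG, 245 in WPGY and 248 in PDB (log2 ratio 0.91), and it passed under TMM, median-of-ratios and length scaling. Class V alcohol dehydrogenase (1133725), which turns acetaldehyde into ethanol in fermenting yeasts, was not called and lay in the other direction, at 2335 CPM in MPY, 3379 in WPG, 3412 in WPGY and 4088 in PDB. An aldolase model, FBA1 (1098103), was under 1 CPM in every library and was not tested.

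Of the 13 mitochondrial energy models, 2 were higher and 4 lower, where 9.05% and 13.1% of all tested models were, with a median log2 ratio to WPG of -0.43. The higher ones were a fumarate reductase, OSM2 (1101272; 997 CPM in MPY, 406 in WPG, 415 in WPGY, 593 in PDB), which in yeast reoxidises reduced flavin when oxygen is short, and an NADH dehydrogenase (963532; 125 CPM in MPY, 25.9 in WPG, 25.4 in WPGY, 70.1 in PDB). The lower ones were the alternative oxidase AOX2, the glycerol 3-phosphate dehydrogenase GUT2 and the carriers for oxaloacetate (OAC1) and thiamine pyrophosphate (TPC1). AOX2 (1101071), which passes electrons to oxygen without pumping protons, stood at 416 CPM in MPY, 989 in WPG, 985 in WPGY and 716 in PDB. GUT2 (1064681) stood at 63.3 CPM in MPY, 209 in WPG and 212 in WPGY, and TPC1 (1060204) at 28.4, 98.1 and 96.6. The citrate cycle enzyme IDH2 (1125653), a subunit of NAD-dependent isocitrate dehydrogenase, stood at 184 CPM in MPY, 285 in WPG and 290 in WPGY and was not called.

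Among 11 tested models for sugar uptake and polysaccharide breakdown, 1 was lower and none higher, while 22.2% of all tested models were called, and the median log2 ratio to WPG was 0.15. The lower one was a sugar transporter annotated as SNF3 (1119157), a name that in yeast belongs to a glucose sensor, with 79.5 CPM in MPY, 166 in WPG, 168 in WPGY and 160 in PDB. Its log2 ratio of -1.05 missed the limit under TMM (-0.94), median-of-ratios (-0.91) and length scaling (-0.92). An alpha-amylase (1114851), of the enzyme class that cuts starch, stood at 43.4 CPM in MPY, 78.4 in WPG, 79.3 in WPGY and 192 in PDB and was not called. An alpha-L-rhamnosidase (982928) had the largest ratio of the list in the other direction, 0.85, with 296 CPM in MPY and 160 in WPG. No model in the annotation held here is named as a maltase or a maltose transporter, and the annotation covers 827 of the 12346 models.

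For amino acids and nitrogen, 2 of 19 tested models were higher and 3 lower, near the 9.05% and 13.1% over all tested models, with a median log2 ratio to WPG of -0.34. Arginase CAR1 (1082990), which splits arginine into ornithine and urea, stood at 797 CPM in MPY, 204 in WPG, 199 in WPGY and 792 in PDB, and its MPY level was 3.90 times that in WPG (interval 3.84 to 3.96). The other higher model was an oxidase of fructosyl amino acids (1047945), at 115 CPM in MPY, 41.0 in WPG and WPGY and 119 in PDB. Both were high in MPY and PDB and low in the woody-plant media. Alanine aminotransferase ALT1 (963452), which interconverts alanine and pyruvate, showed another order, with 51.0 CPM in MPY, 360 in WPG, 364 in WPGY and 744 in PDB. Its log2 ratio was -2.80, the largest fall in the list. Glutamine synthetase (1070290), which joins ammonium to glutamate, fell from 22.7 CPM in WPG and 24.2 in WPGY to 8.42 in MPY, with 17.3 in PDB, and a model annotated for nitrate assimilation (1098620) fell from 11.9 and 11.1 to 4.42 CPM. Aspartate aminotransferase aat2 (1101039), with 653 CPM in MPY and 500 in WPG, and the leucine synthesis enzyme LEU2 (1082696), with 107 and 143, were not called.

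Few ribosomal protein and histone models were called, while 22.2% of all tested models were. None of the 5 cytosolic ribosomal protein models was called, with a median log2 ratio of -0.10 to WPG and a range of -0.61 to 0.51. Of 7 mitochondrial ribosomal protein models, only MRPS9 (1101163) was called, at 28.2 CPM in MPY, 65.7 in WPG and 67.1 in WPGY. The log2 ratios of that list ranged from -1.19 to 0.88. The model at 0.88 (1070200) passed the limit under median-of-ratios (1.02) and length scaling (1.00). Histone H4 (961630) stood at 798 CPM in MPY, 1077 in WPG and 1084 in WPGY. The H3 and H4 model (1124376) stood at 2285 CPM in MPY, 2636 in WPG and 2610 in WPGY, and neither was called.

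Of 7 oxidative stress models, 2 were higher (9.05% over all tested models) and none lower. The glutathione S-transferase 981048 stood at 86.1 CPM in MPY, 38.4 in WPG, 34.9 in WPGY and 95.5 in PDB. The other was 1 of 2 superoxide dismutase models named SOD1 (1083220), at 5.50 CPM in MPY and 1.66 in WPG, while its namesake (1083259) stood at 2.21 and 2.05, and reads of alike copies may have been split between them. Glutathione reductase GLR1 (1060257), with 242 CPM in MPY and 130 in WPG, was not called (log2 ratio 0.89) but passed the limit under TMM (1.00), median-of-ratios (1.03) and length scaling (1.01). Cytochrome c peroxidase CCP1 (64849), with 611 CPM in MPY and 753 in WPG, was not called.

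Of 8 cytochrome P450 and flavin monooxygenase models, 4 were tested, and 1 was higher and 1 lower (9.05% and 13.1% over all tested models). The cytochrome P450 model 981437, of a family of haem-containing monooxygenases, rose to 98.4 CPM in MPY from 7.26 in WPG and 7.52 in WPGY, with 72.1 in PDB, a log2 ratio of 3.54. A flavin monooxygenase, 1101185, had 0 counts in MPY and stood at 1.35 CPM in WPG and 1.22 in WPGY, at least 21.6-fold higher in WPG than the 0.0625 CPM that 3 counts would give in MPY, and it was not called with length-scaled counts. Of 12 tested models of the predicted secondary metabolite clusters, 1 was higher and 2 lower, against 9.05% and 13.1% over all tested models. The peptide synthetase-like model 1032817 stood at 25.3 CPM in MPY, 3.35 in WPG, 4.50 in WPGY and 11.0 in PDB. The polyketide synthase-like models 1121687 and 970716 are neighbours, 913 bases apart on sequence 39. Model 1121687 stood at 184 CPM in MPY, 381 in WPG, 429 in WPGY and 1169 in PDB, and 970716 at 189, 446, 478 and 1178. Both were lowest in MPY and highest in PDB, and the call of 1121687 (log2 ratio -1.04) was lost under TMM (-0.93), median-of-ratios (-0.90) and length scaling (-0.91).

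Of 7 tested lipid and sterol models 1 was higher and 1 lower, and of 6 tested cell wall models none was higher and 2 were lower, against 9.05% higher and 13.1% lower over all tested models. An enoyl-CoA hydratase of leucine breakdown (1072550) stood at 9.01 CPM in MPY, 1.92 in WPG, 2.63 in WPGY and 31.0 in PDB. A phosphatidylserine decarboxylase (1114700), which makes phosphatidylethanolamine, was the lower lipid model, with 0.104 CPM in MPY (5 counts), 1.73 in WPG, 1.48 in WPGY and 0.0763 in PDB. Squalene epoxidase ERG1 (981248), of sterol synthesis, had 103 CPM in MPY and 195 in WPG and missed the limit (log2 ratio -0.92). The cell wall biogenesis model ECM15 (1126546) stood at 14.1 CPM in MPY, 56.2 in WPG and 52.4 in WPGY, and a model annotated as a structural constituent of the cell wall (1119197) at 0.375, 4.27 and 4.47. The wall protein ecm33 (1037499), at 610 CPM in MPY, 685 in WPG and 691 in WPGY, was not called. Over the 14 lists together, 12 of 114 tested models were higher and 23 lower, where 9.05% and 13.1% of all tested models were.

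The functional annotation held here covers 827 models, of which 592 were tested, 57 called higher (9.63%) and 90 lower (15.2%), close to the shares over all models. A few of its largest falls and rises follow, chosen after their values were seen. A secreted-type ribonuclease of the T2 family (1192971) stood at 1.31 CPM in MPY, 55.0 in WPG, 54.6 in WPGY and 25.3 in PDB, a log2 ratio of -4.59. The aquaporin AQY1 (1188962), a water channel, had 0.208 CPM in MPY, 9.41 in WPG, 10.4 in WPGY and 0.216 in PDB, and an oxidoreductase of the glucose-methanol-choline family on the same sequence (1188961) had 1.65 CPM in MPY, 18.4 in WPG and 19.1 in WPGY. A predicted zinc-finger protein (19986) fell from 2156 CPM in WPG and 2092 in WPGY to 221 in MPY, with 269 in PDB.

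The largest annotated rise was in a fungal-specific transcription factor (981019), with 92.7 CPM in MPY, 2.65 in WPG, 2.08 in WPGY and 5.19 in PDB. RTA3 (1070349), of a family of membrane proteins linked to lipid translocation and drug resistance in yeasts, stood at 582 CPM in MPY, 29.2 in WPG, 28.3 in WPGY and 1953 in PDB. A bZIP transcription factor (896787) had a like order, at 572 CPM in MPY, 125 in WPG, 126 in WPGY and 2105 in PDB. Model 1064615, which holds a DUF4449 domain of unknown function, and the cell surface protein 982518 were high in MPY alone. The first stood at 1244 CPM in MPY, 63.8 in WPG, 68.1 in WPGY and 13.8 in PDB, and the second at 264, 14.9, 14.1 and 4.32. A sorbitol dehydrogenase (xdhA, 1126612) stood at 25.1 CPM in MPY against 3.31 in WPG and 3.28 in WPGY. The developmental regulator SST2 (flbA, 1064812), which turns off G protein signalling, stood at 539, 218 and 226 CPM, with 883 in PDB. Among annotated families of at least 5 models, the HNH endonuclease models had 4 of 6 tested lower and none higher, the 4 at 23.3 CPM or less in every compared library, and reads of similar copies may have been shared among them. Of the other such families, calcium and calmodulin-dependent kinases had 2 of 5 tested lower, and 5 ribosomal protein models and the only tested model of a ligase family were not called, where 13.1% of all tested models were lower.

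Of the 8 models with the largest gain in CPM, only the catalytic model of glyceraldehyde 3-phosphate dehydrogenase has a function in the sources used here. The study ranked models by TPM and names the NAD-binding model of that enzyme as the most expressed in MPY. In counts not corrected for length, model 1041746 held the largest share in MPY, 1.25%. It stood at 12453 CPM in MPY, 6072 in WPG, 5866 in WPGY and 6507 in PDB. That is a ratio of 2.05 to WPG, which fell under 2-fold when totals were taken without the 10 models with the most counts in each library (log2 ratio 0.98). Model 1071111 on sequence 5 stood at 6159 CPM in MPY, 358 in WPG, 353 in WPGY and 5205 in PDB, high in MPY and PDB alike. Model 1023977 stood at 4247 CPM in MPY, 466 in WPG, 468 in WPGY and 630 in PDB, nearer to the woody-plant media in PDB. Models 1090294, 1091870 and 1072663 stood between 1873 and 2101 CPM in MPY and between 82.6 and 314 CPM in the woody-plant media.

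Beside the chaperones 990338 and 1039918, the largest losses in CPM were in 6 models without a function in those sources. Model 985714 on sequence 141 stood at 845 CPM in MPY, 9610 in WPG, 9648 in WPGY and 260 in PDB, a WPG level 11.4 times that in MPY (interval 11.3 to 11.5). Model 151253 stood at 752 CPM in MPY, 5312 in WPG, 5044 in WPGY and 270 in PDB. Model 752509 differed in that PDB, at 2493 CPM, lay between MPY (1148) and WPG (4854). The remaining 3 (1133673, 1092427 and 1125059) had log2 ratios of -3.05, -1.60 and -2.47.

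Models called alike also lay next to each other. Of the 758 higher models followed by another model on the same sequence, 19.8% had a next model that was also higher, while 6.43% of all models with a position were higher. For the 1111 lower models this share was 25.8%, while 9.33% of all models were lower. There were 86 runs of at least 3 neighbouring models called alike, 27 higher with 86 models and 59 lower with 216. In 13 of the runs, models overlap in position, and since the strand setting of the counting is not given in the sources used here, reads of overlapping models cannot be told apart.

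The longest run held 9 lower models over 32207 bases of sequence 22 (bases 8333 to 40539), from 1120143 to 327563, and none of its models overlap. Its models stood between 0.146 and 4.73 CPM in MPY, between 0.508 and 6.68 in PDB and between 7.62 and 568 in the woody-plant media. Together they held 17.8 CPM in MPY, 774 in WPG, 739 in WPGY and 27.9 in PDB. A run of 6 lower models on sequence 168 (bases 132681 to 145023) held 205485 and summed to 3.88 CPM in MPY, 253 in WPG, 256 in WPGY and 18.9 in PDB. Its 6 models stood at or under 1.63 CPM in MPY, and a pair of them overlap. A run of 6 on sequence 210 summed to 30.8 CPM in MPY, 223 in WPG, 205 in WPGY and 171 in PDB. Model 1089425 alone held 114 CPM of that PDB sum. The median of the run was 1.86 CPM in MPY, 28.0 in WPG, 26.3 in WPGY and 13.2 in PDB. A run of 6 on sequence 44 summed to 636 CPM in MPY, 1866 in WPG, 1894 in WPGY and 700 in PDB. A run of 5 on sequence 19, 1 of several of that length, summed to 16.6, 73.7, 68.8 and 59.3.

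The longest higher run held 5 models (1075644, 1075646, 1075649, 1121213 and 1121216) spread over 141362 bases of sequence 33, with gaps of up to 76306 bases between them. It was picked as the longest in its direction after its values were seen. Its main member, 1075649, stood at 311 CPM in MPY, 74.7 in WPG, 74.4 in WPGY and 711 in PDB. None of the models in these runs has a function in the annotation held here, which covers only a small part of all models.

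**Figure D4:**
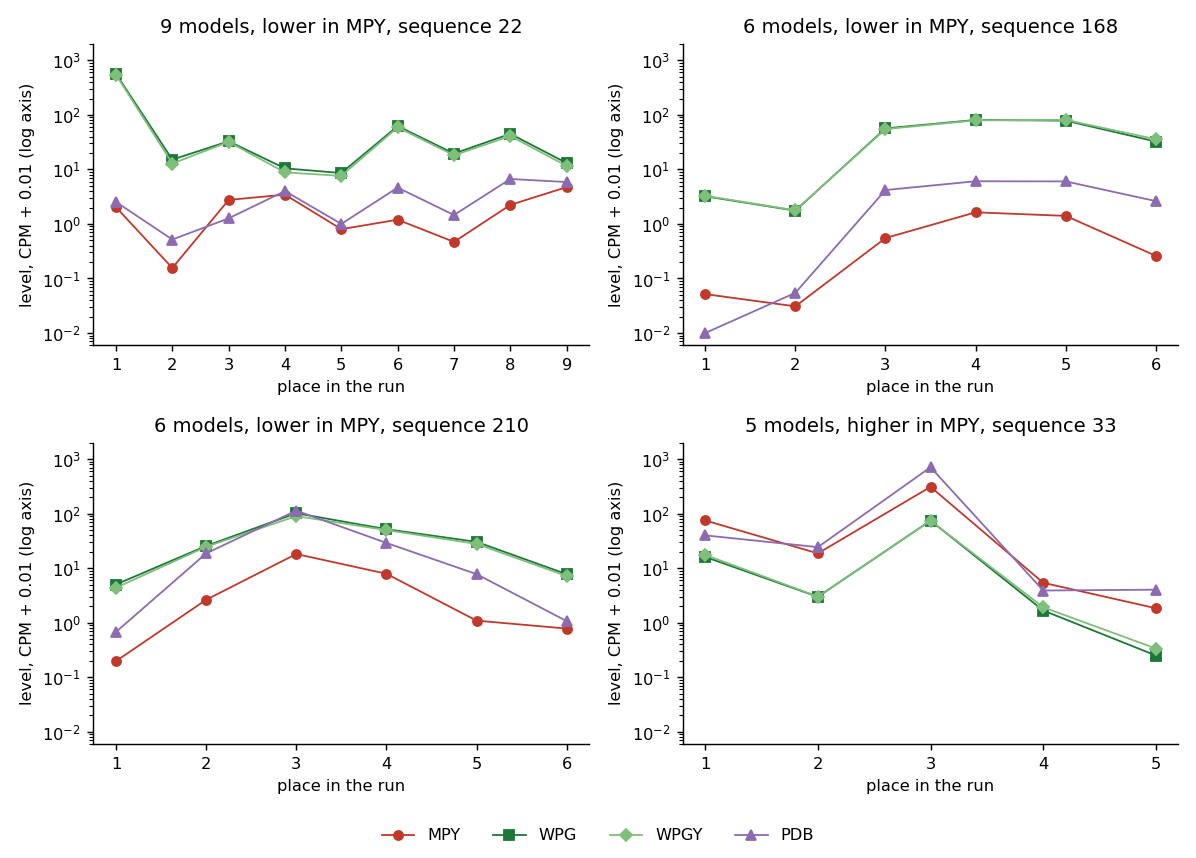
Level in CPM + 0.01 (log axis) of each model along 4 runs of neighbouring models called alike, by place in the run, in the 4 libraries. WPG and WPGY trace the same line above MPY in the 3 lower runs and below it in the higher run on sequence 33. PDB lies near MPY on sequence 22. On sequence 210 PDB is nearer to the woody-plant media at places 2 to 5 and nearer to MPY at places 1 and 6.

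The call is a limit on a continuous scale. Just inside it lay 1111360 among the higher models (37.8 CPM in MPY, 18.4 in WPG, 17.3 in WPGY) and 1031409 among the lower (33.0, 66.9 and 68.2 CPM). Just outside lay 332927, at 160 CPM in MPY, 75.0 in WPG and 79.6 in WPGY, and 995887, at 12.3, 25.7 and 25.7 CPM.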

How the data were processed

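Polyadenylated RNA of *T. borchii* SP1 mycelium was sequenced as 1 library per medium. The authors checked the reads with FastQC, trimmed them with Trimmomatic, aligned them to assembly Tubbor1 with STAR and assigned them to 12346 gene models with featureCounts. The files as deposited hold raw counts, with no correction for depth or gene length. The strand and multi-mapping settings are not given in the sources used here. All sample columns were used (0 left out), and the kallisto values named in the submitters' notes were not used here.

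Counts were scaled to a total of 1000000 per library (CPM), which assumes that total RNA is comparable between media, and a pseudocount of 1 CPM was added before log2. A single library gives no error beyond counting, so shallow MPY values (3 counts are 0.0625 CPM) carry wider intervals than those of WPG and WPGY. Models of at least 1 CPM in 1 of the 3 libraries were tested against the 2-fold limit. The 12 largest rises and falls by log2 ratio and the 8 largest gains and losses by CPM were named among models of at least 10 CPM, together with members of 14 lists (127 models), the 5 longest runs and the models next to the limit. Runs of 5 models were tied in length, and the tie was broken by the order of the sequences. Members, lists and rules were chosen with earlier results of these data known. Functions come from the study's text and from the part of its annotation table held here (827 models), of which only the annotation was read. Positions come from a gene table of the same assembly, which holds no strand or exons. No sequence is shown.

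The alternatives were pseudocounts of 0.1 and 5, no filter and a filter of 10 CPM, median-of-ratios scaling, TMM scaling (edgeR 4.0.16, R 4.3.3), totals without the 10 models with the most counts in each library, WPG and WPGY thinned to the MPY total, counts divided by span, a 4-fold limit, and WPG or WPGY alone. The calling rule was tested on simulated data. Scripts ran in Python 3.11.15 with pandas 2.3.3, numpy 2.4.6, matplotlib 3.10.9 and scipy 1.17.1.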

Additional observations from a re-analysis of the deposited data

How the results depend on the processing

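The numbers of higher and lower models stayed within 1.5 times the reported 794 and 1152 under 10 of the 12 alternatives. Under a 4-fold limit they were 229 and 279. With a pseudocount of 5 the lower models numbered 710 and the higher 630. No model called higher was called lower under any of the 12, or the reverse. This outcome was largely fixed beforehand. Changed limits, filters and pseudocounts cannot reverse the sign of a ratio, and the scalings moved the median ratio only a little. The share of calls that were higher, 40.8% as reported, ranged from 37.4% with totals taken without the highest models to 50.5% under median-of-ratios scaling. The median log2 ratio to WPG was 0.0257 under median-of-ratios scaling, -0.000125 under TMM scaling and -0.00262 with length-scaled counts, and that to WPGY was 0.0268 under median-of-ratios and -0.00483 under TMM scaling. All 3 scalings raised the median ratio to WPG by similar amounts. They are therefore not independent checks of a call near the limit. Of the members of the 14 lists, 6 were higher and 3 lower at 4-fold, against 12 and 23. Under the 11 other alternatives the count of any single list changed by at most 1. Runs of neighbouring models numbered 39 with a pseudocount of 5, 50 with a filter of 10 CPM and 14 at 4-fold, against 86. The 35 lower models with at most 3 counts in MPY are limited by its depth. No paired analysis was possible because each medium has 1 library.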
